A study of Mus musculus with 6 samples.

Results

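The unfolded protein response and the integrated stress response were followed through 35 genes in the livers of mice fed ethanol, 3 of them with Cd44 deleted in myeloid cells and 3 littermate controls. The 35 were the rows of the count table whose Ensembl identifiers map to a list of gene symbols, of 54532 rows in all, and every one of them passed the filter on low counts. The knockout mice were C57BL/6J/Rj animals of the genotype LysMcre/+ Cd44flox/flox, and the controls, labelled WT, were LysM+/+ Cd44flox/flox, so that both groups carried the floxed alleles and only the knockouts carried Cre. Cre at the LysM locus (Lyz2) is active in macrophages, monocytes and granulocytes. All mice had a Lieber-DeCarli diet containing 6% ethanol (by volume) over 10 days and a single ethanol gavage of 5 g/kg on day 11, and livers were taken 9 hours after it. Their ages are not stated in the labels. No mice without ethanol and none with Cre alone were analysed here, and loss of Cd44 and presence of Cre at Lyz2 cannot be told apart. Whole liver was sequenced, and fewer cells of a type and less RNA per cell cannot be told apart in such samples.

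Library totals ran from 18428224 to 24042917 counts. Cd44 stood at 2.11, 1.92 and 3.01 CPM (read counts scaled to a common library size) in the knockout livers and at 32.6, 34.8 and 26.4 CPM in the control livers, the direction its label gives. Of 10 hepatocyte markers, which identify the tissue, the summed level ran from 101600 to 138300 CPM in the knockouts and from 76330 to 90910 CPM in the controls. Values below use library sizes scaled by TMM (a trimmed mean over genes) and are listed for knockout mice 1, 2 and 3 and control mice 1, 2 and 3. Fold changes are knockout over control from edgeR's quasi-likelihood test, given as log2 values with a standard error (SE), and a gene passed at a Benjamini-Hochberg adjusted p under 0.05 over 14758 tested genes.

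Proteins that are secreted or membrane-bound fold in the endoplasmic reticulum (ER), and hepatocytes, which make most plasma proteins, carry a large load of this work. When unfolded proteins build up there, the sensors IRE1, PERK and ATF6 respond. IRE1, through the transcription factor XBP1, and ATF6, once cleaved, raise the output of chaperones, folding enzymes and degradation factors. PERK belongs as well to a group of kinases that phosphorylate the translation factor eIF2 in response to ER stress, amino acid shortage, viral RNA or lack of heme, and this integrated stress response (ISR) raises translation of ATF4, which drives genes of amino acid synthesis, transfer RNA charging and redox balance. Messenger RNA counts show neither the splicing of Xbp1 nor the cleavage of ATF6 nor the phosphorylation of eIF2.

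The promoters of the members hold different response elements. RefSeq promoter windows on GRCm38.p6, from 250 bases before to 50 after each start, were found for 32 of the 35 symbols, and Atf6, Hyou1 and Manf had no entry. The ER stress element ERSE (CCAAT and CCACG with 9 bases between them, both strands), bound by NF-Y with ATF6 or XBP1, was matched in 7 of the 12 chaperone and folding members with a window and in 0 of the 6 ATF4 amino acid targets. Its share over all 32851 windows was 0.119%, and against so low a share 0 of 6 is not a result about the targets. The matches are shown to let their fixed ends (capitals) be compared, in the direction of the motif, with Syvn1 from the degradation group as the only other member that held one.
Hspa5: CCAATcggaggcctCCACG
Hsp90b1: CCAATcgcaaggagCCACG
Hsp90b1: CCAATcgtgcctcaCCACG
Calr: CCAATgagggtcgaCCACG
Canx: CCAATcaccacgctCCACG
Pdia6: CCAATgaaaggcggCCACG
Dnajc3: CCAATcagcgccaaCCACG
Creld2: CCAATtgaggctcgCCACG
Syvn1: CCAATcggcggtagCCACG
The shorter element ERSE-II (ATTGG and CCACG with 1 base between them, both strands) was matched in Herpud1 and Dnajb11, against 0.0365% of all windows. The C/EBP-ATF response element (CARE, searched as TGATGNAA on both strands), the site through which ATF4 acts, was matched in Asns, Chac1, Trib3, Vldlr and Herpud1, against 3.97% of all windows. These included 2 of the 6 ATF4 amino acid targets with a window and 0 of the 12 chaperone members. Against a share of 3.97% that 0 is not a result about the chaperones. The windows of Phgdh, Psat1 and Mthfd2, which fell, and of Shmt2, which rose, held no CARE match. The cyclic AMP response element CRE (TGACGTCA, the same on both strands) was matched in Ppp1r15a, against 1.79% of all windows, and TGACGTGG (UPRE, both strands) was matched in 0 members. None of these matches overlapped another. A match is a description of these letters and does not show binding.

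3 promoters are printed whole as examples of windows with an ERSE, a CARE and a CRE. They are Hspa5 (chr2:34771840-34772139, plus strand) with its ERSE at −65 to −47, Asns (chr6:7693160-7693459, minus strand) with its CARE at −23 to −16 and Ppp1r15a (chr7:45526219-45526518, minus strand) with its CRE at −12 to −5. Each runs 5′ to 3′ along the gene, positions are counted from the RefSeq start, and capitals mark the fixed letters of the motif.
Hspa5: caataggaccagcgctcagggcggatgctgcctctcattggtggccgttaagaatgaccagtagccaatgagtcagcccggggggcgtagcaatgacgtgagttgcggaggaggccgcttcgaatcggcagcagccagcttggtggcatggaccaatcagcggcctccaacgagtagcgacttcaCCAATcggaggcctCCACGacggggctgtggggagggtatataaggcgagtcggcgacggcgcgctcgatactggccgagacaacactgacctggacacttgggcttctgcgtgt
Asns: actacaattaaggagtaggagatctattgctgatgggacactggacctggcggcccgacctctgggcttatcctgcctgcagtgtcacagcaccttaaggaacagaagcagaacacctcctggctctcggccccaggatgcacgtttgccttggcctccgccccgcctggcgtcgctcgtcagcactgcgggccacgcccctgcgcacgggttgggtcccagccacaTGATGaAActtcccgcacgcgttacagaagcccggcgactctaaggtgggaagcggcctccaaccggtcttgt
Ppp1r15a: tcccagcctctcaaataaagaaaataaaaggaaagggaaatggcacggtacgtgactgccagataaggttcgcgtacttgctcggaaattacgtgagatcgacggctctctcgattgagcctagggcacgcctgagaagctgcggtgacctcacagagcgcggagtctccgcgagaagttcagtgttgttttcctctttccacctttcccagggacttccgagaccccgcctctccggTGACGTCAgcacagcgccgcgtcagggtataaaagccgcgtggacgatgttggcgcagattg

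**Figure D1:**
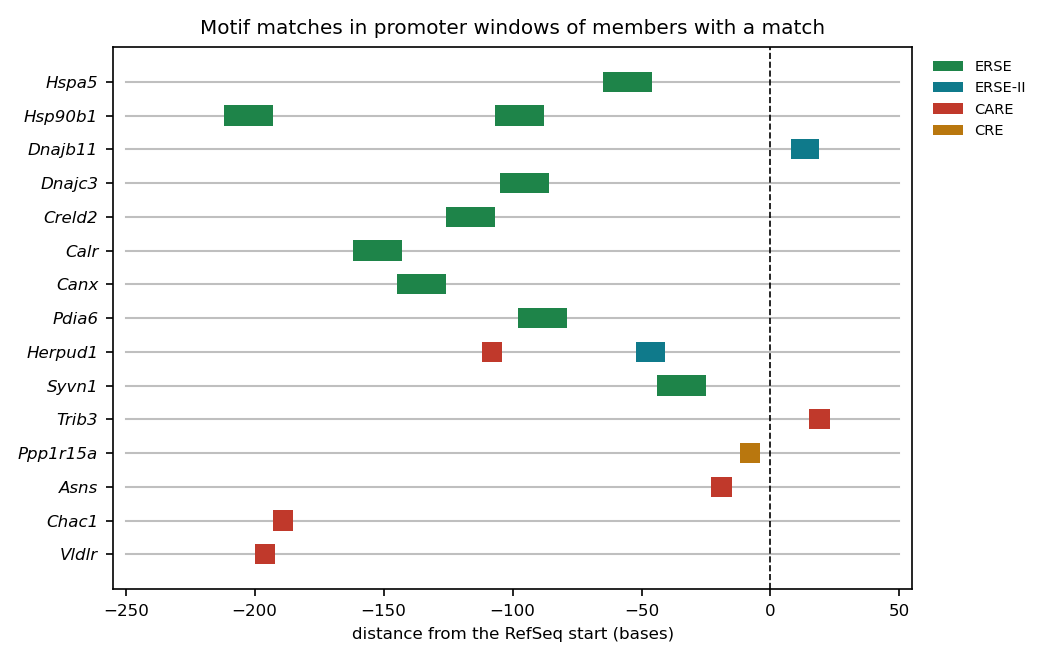
Motif matches in the promoter windows of the members that held one, by distance in bases from the RefSeq start (dashed line), with ERSE in green, ERSE-II in teal, CARE in red and CRE in brown. ERSE stands in 7 chaperone members and in Syvn1, between −212 and −26, and CARE stands in 5 members.

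Of 35 members, 2 rose and 6 fell, 22.9% in all, where 25.0% of all 14758 tested genes passed (11.9% higher, 13.1% lower). The module as a whole was therefore called about as often as the transcriptome. Of 14 chaperone and folding members 0 passed, and of 6 ATF4 amino acid targets 4 fell and 1 rose. Sel1l and Shmt2 rose, and Ppp1r15a, Asns, Psat1, Phgdh, Mthfd2 and Ddit4 fell. The CPM values of the knockout and control livers did not overlap for 3 members that were higher and 8 that were lower, 11 of 35, against 21.4% and 22.5% of all tested genes, 43.8% in all. Without control mouse 1 the number that fell was 3, and with library totals in place of TMM it was 10 with 1 that rose, a scaling that moved the median of all genes to −0.26 from −0.01 and the calls over all genes to 904 higher and 3698 lower from 1751 and 1933. Without control mouse 2, 1086 genes rose and 1189 fell, and without knockout mouse 1, 1113 rose and 1183 fell.

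**Figure D2:**
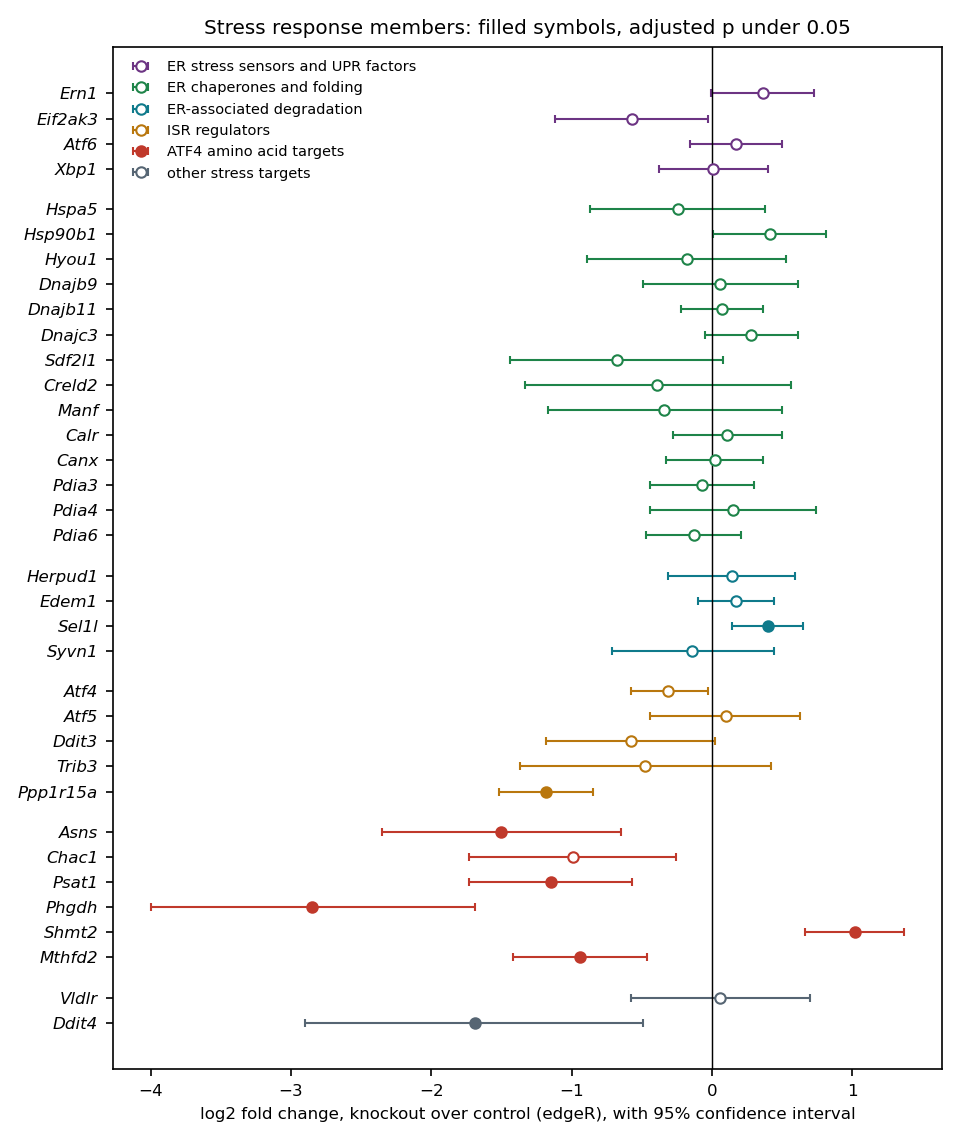
Log2 fold change of each of the 35 members, knockout over control, with its 95% confidence interval, by role. Filled symbols passed at an adjusted p under 0.05. The 14 chaperone and folding members lie between −0.68 and 0.41 and all 14 are open, while 5 of the 6 ATF4 amino acid targets are filled, with Shmt2 alone to the right of 0.

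Of the 4 genes of the ER stress sensors and Xbp1, 0 passed by edgeR, DESeq2 or limma-voom, where edgeR called 25.0% of all tested genes. By edgeR 1 of the 4 had an unadjusted p under 0.05. Eif2ak3, which encodes PERK, stood at 37.3, 20.3 and 34.6 CPM in the knockout livers against 56.6, 41.3 and 39.2 CPM in the control livers. Every knockout value lay below every control value, and the log2 change was −0.57 (SE 0.24, adjusted p = 0.113 by edgeR). It was past the threshold with library totals (adjusted p = 0.0417) and with no filter (adjusted p = 0.0425). Eif2ak3 shares 485 exon bases with an overlapping gene on the other strand and whether counting used strand is unknown. Ern1, which encodes IRE1 alpha, stood at 155, 141 and 106 CPM in the knockouts, against 95.7, 117 and 99.7 CPM in the controls (log2 0.36, SE 0.16, adjusted p = 0.139 by edgeR). Knockout mouse 3 lay within the control range, and without it the adjusted p was 0.0353. Atf6, the membrane-bound transcription factor, measured 200, 184 and 139 CPM in the knockouts and 153, 155 and 156 CPM in the controls (log2 0.17, SE 0.15). Its controls lay within a few CPM of each other while the knockouts straddled them. Xbp1, whose messenger RNA IRE1 splices, measured 227, 231 and 210 CPM in the knockouts and 282, 181 and 200 CPM in the controls (log2 0.01, SE 0.17, 95% confidence interval −0.38 to 0.40).

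The ER chaperones and folding enzymes showed no call in either direction. Of the 14 members 0 passed by edgeR, 0 by DESeq2 and 0 by limma-voom, where edgeR called 25.0% of all tested genes. By edgeR 1 of the 14 had an unadjusted p under 0.05. Their median log2 change was −0.03, against −0.01 over all tested genes, with 7 members above 0 and 7 below. Hspa5, which encodes BiP, the main ER chaperone and the protein that holds the sensors inactive, stood at 998, 566 and 924 CPM in the knockout livers against 1330, 746 and 868 CPM in the control livers. The groups overlapped widely (log2 −0.24, SE 0.27, adjusted p = 0.549 by edgeR), and the 95% confidence interval of −0.87 to 0.38 leaves room for changes of moderate size. Hsp90b1, which encodes GRP94, the ER form of HSP90, stood at 552, 553 and 560 CPM in the knockouts against 511, 318 and 426 CPM in the controls. It was the only chaperone whose groups did not overlap (log2 0.41, SE 0.18, adjusted p = 0.125 by edgeR), and without control mouse 1 its adjusted p was 0.0437. Hsp90b1 shares 415 exon bases with a pseudogene on the other strand. Without control mouse 1 the list median was 0.16 and without knockout mouse 2 it was 0.06, and with library totals it was −0.28 where the median of all genes was −0.26.

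The lectin chaperones, disulfide isomerases and co-chaperones had log2 changes between −0.13 and 0.28. Calr and Canx, which hold glycoproteins while they fold, averaged 552 ± 51.8 and 295 ± 49.1 CPM in the knockouts and 513 ± 102 and 292 ± 24.9 CPM in the controls (SD, n = 3 each). Pdia3, the isomerase that works with them, averaged 332 ± 41.0 CPM in the knockouts and 350 ± 59.5 CPM in the controls. Pdia4 and Pdia6 had log2 changes of 0.15 (SE 0.26) and −0.13 (SE 0.15). Among the J-domain co-chaperones of BiP, Dnajc3 measured 323, 391 and 326 CPM in the knockouts and 324, 247 and 287 CPM in the controls (log2 0.28, SE 0.14, adjusted p = 0.199 by edgeR). Dnajb9 and Dnajb11 had log2 changes of 0.06 (SE 0.24) and 0.07 (SE 0.13).

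Creld2, Sdf2l1, Manf and Hyou1 had the widest ranges of the 14 chaperones among the control livers, 3.24-fold, 2.98-fold, 2.74-fold and 2.29-fold. Sdf2l1, a partner of Dnajb11, stood at 11.2, 11.9 and 14.1 CPM in the knockouts against 29.5, 9.91 and 20 CPM in the controls. The control livers enclosed the knockouts (log2 −0.68, SE 0.33, adjusted p = 0.174 by edgeR, and 0.0195 without control mouse 2). Creld2, a secreted protein induced by ER stress, measured 27.8, 14.5 and 27.9 CPM in the knockouts and 51.5, 15.9 and 24.1 CPM in the controls. Manf, a secreted protein that binds BiP, measured 84.8, 45.9 and 92.4 CPM in the knockouts and 142, 51.8 and 88.2 CPM in the controls. Hyou1, which exchanges nucleotide on BiP, measured 191, 104 and 162 CPM in the knockouts and 244, 107 and 167 CPM in the controls. In each of these 3 genes 1 liver of either group was low and the groups overlapped. Over the 14 chaperones, control mouse 1 was the highest control in 14 of 14 and control mouse 2 the lowest in 14 of 14, and knockout mouse 2 was the lowest knockout in 11 of 14. The 14 genes share library and depth, so this order describes single livers. The 14 together took 0.372%, 0.272% and 0.375% of all counts in the knockout livers and 0.499%, 0.321% and 0.383% in the control livers.

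**Figure D3:**
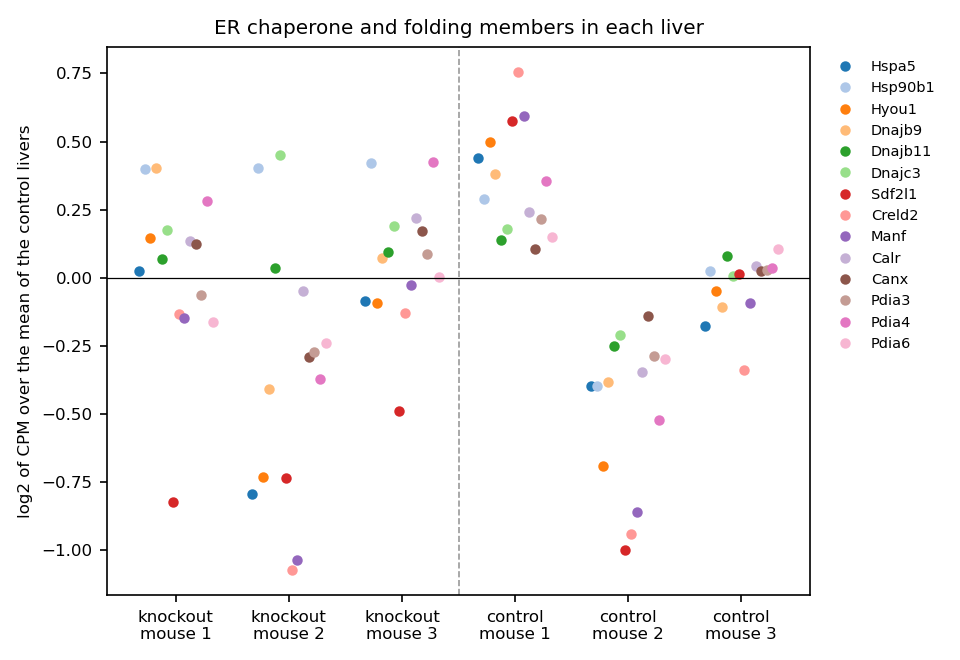
Level of each of the 14 ER chaperone and folding members in each liver, as log2 of CPM over the mean of the control livers, with 1 colour per gene and knockout livers left of the dashed line. All 14 genes are highest among controls in control mouse 1 and lowest in control mouse 2, and 11 are lowest among knockouts in knockout mouse 2.

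Of the 4 members of ER-associated degradation, which returns misfolded proteins to the cytosol, Sel1l rose, 25% called where 25.0% of all tested genes passed. Sel1l, the adaptor that holds the ubiquitin ligase HRD1, stood at 196, 206 and 187 CPM in the knockout livers against 138, 148 and 162 CPM in the control livers. Every knockout value lay above every control value (log2 0.40, SE 0.11, adjusted p = 0.0347 by edgeR). The call was lost with library totals (log2 0.14), with no filter, and without knockout mouse 1, knockout mouse 2, control mouse 1 or control mouse 2 (adjusted p by edgeR 0.0994, 0.0808, 0.0888 and 0.0966). Syvn1, the ligase HRD1 itself, measured 109, 79.1 and 92.0 CPM in the knockouts and 143, 67.7 and 97.4 CPM in the controls. Herpud1, a membrane component of the same complex, measured 398, 345 and 259 CPM in the knockouts and 290, 253 and 369 CPM in the controls. Edem1, which delivers glycoproteins to it, measured 204, 203 and 208 CPM in the knockouts and 182, 163 and 203 CPM in the controls. These 3 genes had log2 changes of −0.14, 0.14 and 0.17, and their groups overlapped.

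Of the 5 ISR regulators, Ppp1r15a fell and 4 did not pass, 20% called where 25.0% of all tested genes passed. Ppp1r15a encodes GADD34, which brings a phosphatase to eIF2 and ends the response, and it stood at 15.3, 14.6 and 17.8 CPM in the knockout livers against 42.4, 31.6 and 34.2 CPM in the control livers. It was 2.27-fold lower with groups far apart (log2 −1.18, SE 0.15, adjusted p = 0.00132 by edgeR), and it passed under all 14 alternatives run (adjusted p at most 0.00974). Atf4, the transcription factor at the centre of the response, stood at 141, 156 and 131 CPM in the knockouts against 195, 170 and 166 CPM in the controls. Its groups did not overlap (log2 −0.31, SE 0.12, adjusted p = 0.0994 by edgeR), and it was past the threshold with library totals alone (adjusted p = 0.0093). Ddit3, which encodes CHOP, the factor tied to cell death in prolonged stress, stood at 21.6, 26.5 and 11.2 CPM in the knockouts against 31.7, 28.6 and 28.3 CPM in the controls. All 3 knockouts lay below the controls, knockout mouse 3 far below (log2 −0.58, SE 0.26, adjusted p = 0.146 by edgeR). The adjusted p by edgeR was 0.0467 without knockout mouse 2 and 0.0319 with library totals. Ddit3 shares 68 exon bases with Mars on the other strand, and a second identifier of that symbol had 0 counts in every liver.

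Trib3 and Atf5 had no call, and their groups overlapped. Trib3, a pseudokinase induced by ATF4 and CHOP, stood at 144, 80 and 40.7 CPM in the knockouts against 97.1, 155 and 116 CPM in the controls. The knockouts differed 3.55-fold among themselves and overlapped the controls (log2 −0.48, SE 0.39, adjusted p = 0.413 by edgeR). Atf5, a related factor of the mitochondrial stress response, measured 816, 1350 and 723 CPM in the knockouts and 906, 818 and 978 CPM in the controls (log2 0.10, SE 0.23). Knockout mouse 2 was high for Atf5 and the other livers lay close together.

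Of the ATF4 targets of amino acid and one-carbon metabolism most fell. Of 6 members 4 fell, 66.7% where 13.1% of all tested genes did, and 1 rose, and their median log2 change was −1.07. Phgdh, the first enzyme of serine synthesis, stood at 0.623, 0.433 and 1.82 CPM in the knockout livers against 4.21, 8.85 and 7.74 CPM in the control livers. It was 7.2-fold lower with every knockout below every control (log2 −2.85, SE 0.51, adjusted p = 0.0057 by edgeR), and −3.69 without knockout mouse 3. Psat1, the next enzyme, stood at 15.3, 27.3 and 17.3 CPM in the knockouts against 37.4, 58.2 and 37.4 CPM in the controls. It was 2.22-fold lower, again with separate groups (log2 −1.15, SE 0.25, adjusted p = 0.0134 by edgeR, and 0.0506 without knockout mouse 1). Asns, which makes asparagine, stood at 5.90, 12.8 and 4.24 CPM in the knockouts against 27.8, 19.7 and 17.6 CPM in the controls. It was 2.84-fold lower (log2 −1.50, SE 0.37, adjusted p = 0.0208 by edgeR). Without knockout mouse 2, the highest knockout, the log2 change was −2.09, and without knockout mouse 1, control mouse 1 or control mouse 2 the adjusted p by edgeR was 0.0762, 0.0679 or 0.051.

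Among the members, the mitochondrial folate enzymes Mthfd2 and Shmt2 moved in opposite directions. Mthfd2, which oxidises the one-carbon unit in mitochondria, stood at 10.2, 10.9 and 6.70 CPM in the knockout livers against 20.9, 17.6 and 14.7 CPM in the control livers. It was 1.92-fold lower with separate groups (log2 −0.94, SE 0.21, adjusted p = 0.014 by edgeR, and 0.0504 without control mouse 1). Shmt2, the mitochondrial enzyme that passes that unit from serine to folate, stood at 242, 185 and 253 CPM in the knockouts against 113, 97.5 and 125 CPM in the controls. It was 2.02-fold higher, with every knockout above every control (log2 1.02, SE 0.16, adjusted p = 0.00327 by edgeR), and it passed under all 14 alternatives run, library totals included (lowest log2 0.77). Chac1, which degrades glutathione, stood at 8.82, 4.47 and 4.44 CPM in the knockouts against 15.8, 11.0 and 8.48 CPM in the controls. Knockout mouse 1 lay just above control mouse 3 (log2 −0.99, SE 0.32, adjusted p = 0.0542 by edgeR), and Chac1 passed under 6 of 14 alternatives, DESeq2 (adjusted p = 0.0138), limma-voom (adjusted p = 0.0469) and the fit without knockout mouse 1 (adjusted p = 0.0212) among them. Without control mouse 1, 2 of the 6 targets fell.

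The remaining stress targets were 1 gene that fell and 1 without a call. Ddit4, which encodes REDD1, an inhibitor of the growth kinase mTORC1, stood at 20.4, 49.6 and 11.8 CPM in the knockout livers against 133, 47.4 and 84.4 CPM in the control livers. Knockout mouse 2 lay above control mouse 2, and both groups were wide (log2 −1.69, SE 0.53, adjusted p = 0.0467 by edgeR). The adjusted p was 0.0684 by DESeq2, and by edgeR 0.141, 0.0928, 0.144 and 0.0978 without knockout mouse 1, knockout mouse 3, control mouse 1 and control mouse 3, while the log2 change was −2.45 without knockout mouse 2. Vldlr, a lipoprotein receptor that PERK and ATF4 are known to induce in mouse liver, measured 29.1, 36.3 and 21.7 CPM in the knockouts and 17.4, 37.8 and 28.4 CPM in the controls (log2 0.06, SE 0.28). Of the 5 members whose promoters hold the CARE letters, Asns fell, and Chac1, Trib3, Vldlr and Herpud1 had no call by edgeR.

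**Figure D4:**
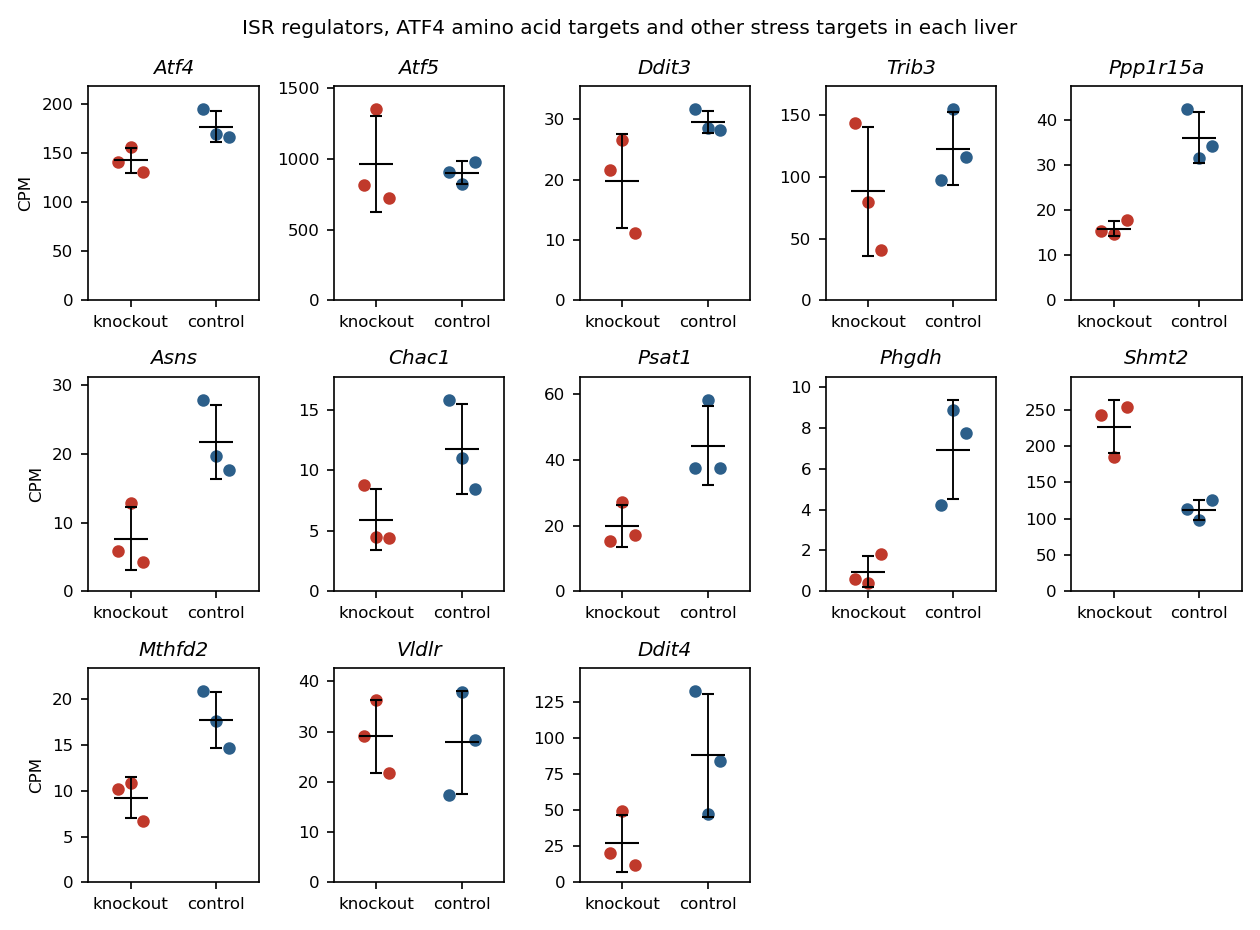
CPM of the 5 ISR regulators, the 6 ATF4 amino acid targets and the 2 other stress targets in each liver, knockout (red) left of control (blue), with 1 point per mouse and bars at the mean ± SD of 3 livers on axes from 0. Ppp1r15a, Asns, Psat1, Phgdh and Mthfd2, and Atf4 and Ddit3 which had no call, are lower in all 3 knockouts. Shmt2 is higher in all 3, and Trib3, Atf5, Chac1, Vldlr and Ddit4 overlap.

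Set side by side, the ATF4 amino acid targets lay below the chaperones in the knockout livers. In each liver the median over a group's members of log2(CPM + 0.5) was taken relative to the mean of the controls. For the ATF4 amino acid targets it was −1.11, −0.69 and −1.31 in the knockouts and 0.14, −0.02 and −0.23 in the controls. For the chaperones it was 0.10, −0.31 and 0.10 in the knockouts and 0.36, −0.35 and 0.04 in the controls. The first group separated the genotypes and the other did not. The gap between the groups within a liver was −1.22, −0.38 and −1.41 in the knockouts and −0.22, 0.33 and −0.27 in the controls, so knockout mouse 2 came close to control mouse 3. From the fitted values the difference of the medians was −1.04, from −1.31 to −0.82 when 1 liver was left out, and −1.06 with library totals. This difference is a description of chosen members and carries no test.

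**Figure D5:**
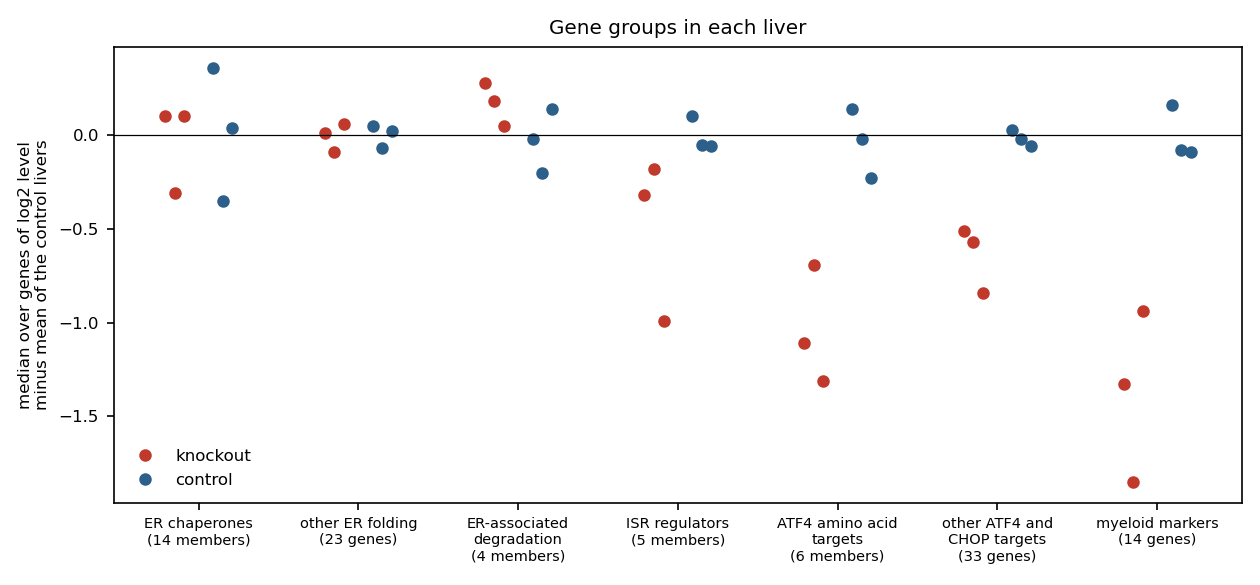
Median over the genes of each group of log2(CPM + 0.5) minus the mean of the control livers, 1 point per liver, knockout (red) left of control (blue). The 14 myeloid markers include Cd44 and Lyz2. The ATF4 amino acid targets run from −1.31 to −0.69 in the knockouts and from −0.23 to 0.14 in the controls, and the chaperones overlap at −0.31 to 0.10 and −0.35 to 0.36.

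In the wider set of ATF4 and CHOP targets, of 33 tested genes that are no members, 15 fell and 1 rose (45.5% and 3.03%, where 13.1% and 11.9% of all tested genes did), and their median log2 change was −0.72. From 10 to 14 of them fell when 1 liver was left out. Slc7a11, the cystine importer, stood at 0.240, 0.0962 and 0.296 CPM in the knockouts against 5.44, 11.6 and 6.74 CPM in the controls (log2 −5.20, SE 0.46, adjusted p = 0.000518 by edgeR), and its knockout values rest on 2 to 6 counts. Aldh1l2, a mitochondrial folate enzyme, averaged 1.03 ± 0.149 CPM in the knockouts and 4.93 ± 0.588 CPM in the controls (SD, n = 3 each), 4.75-fold lower. Aldh18a1, the entry enzyme of proline synthesis, was 3.42-fold lower and Pck2, the mitochondrial PEP carboxykinase, was 2.54-fold lower, at adjusted p = 0.00108 and 0.0012 by edgeR. These 4 passed without any 1 liver. Psph, the last enzyme of serine synthesis, and Mthfd1l, another mitochondrial folate enzyme, were picked after their values were seen. Psph averaged 10.2 ± 3.29 CPM in the knockouts and 27.4 ± 6.74 CPM in the controls, and Mthfd1l averaged 7.18 ± 1.15 CPM in the knockouts and 13.8 ± 0.451 CPM in the controls (SD, n = 3 each, both falling at an adjusted p by edgeR of 0.00604 and 0.00433). The gene that rose, Cth, cuts cystathionine to cysteine (log2 0.47, SE 0.14, adjusted p = 0.0418 by edgeR), and its adjusted p lay between 0.069 and 0.102 without knockout mouse 1, 2 or 3 or control mouse 1 or 2, and was 0.248 with library totals. Cytosolic aminoacyl-tRNA synthetases, another class of ATF4 targets, did not share this fall as a class. Of 20 tested 1 rose and 3 fell, 20% called where 25.0% of all tested genes passed, with a median log2 change of −0.11.

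In the wider ER folding set, of 23 tested genes beyond the members 2 rose and 3 fell, 21.7% where 25.0% of all tested genes passed, with a median log2 change of −0.01. Calu, a calcium-binding protein of the secretory pathway, stood at 141, 149 and 163 CPM in the knockouts against 251, 266 and 251 CPM in the controls (log2 −0.76, SE 0.11, adjusted p = 0.00272 by edgeR). Fkbp11, a prolyl isomerase, fell as well (log2 −1.08, SE 0.24, adjusted p = 0.0131 by edgeR), and both passed without any 1 liver. Of 19 further degradation genes 1 passed (5.26%), Derl2, which rose, a channel component, at 109, 97.8 and 118 CPM in the knockouts against 71.0, 78.3 and 75.6 CPM in the controls (log2 0.53, SE 0.11, adjusted p = 0.012 by edgeR). It did not pass with library totals (adjusted p = 0.141). Of 15 eIF2 kinases, phosphatase parts and related genes 2 rose and 1 fell, 20% in all. Dele1, which relays mitochondrial stress to an eIF2 kinase, stood at 43.8, 41.3 and 42.5 CPM in the knockouts against 32.7, 33.3 and 31.6 CPM in the controls (log2 0.39, SE 0.10, adjusted p = 0.0228 by edgeR). Its adjusted p was 0.08, 0.0556 and 0.0606 without knockout mouse 1, control mouse 2 and control mouse 3, 0.404 with library totals and 0.0525 with no filter. Ppp1r15b, which encodes CReP, a constitutive subunit that brings the phosphatase to eIF2 in place of GADD34, averaged 160 ± 17.5 CPM in the knockouts and 120 ± 2.17 CPM in the controls (SD, n = 3 each, log2 0.42, adjusted p = 0.0319 by edgeR), a call lost without knockout mouse 1, knockout mouse 2 or any control (adjusted p 0.0691 to 0.0861) and with library totals (adjusted p = 0.3). The kinases themselves, Eif2ak1, Eif2ak2 and Eif2ak4, were not among the 3 called.

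On a scale per length (CPM per kilobase of merged exons), which allows levels to be compared between genes, Atf5 had the highest level of the 35 members, 484 in the knockouts and 452 in the controls. Hspa5 (196 in the knockouts and 232 in the controls) and Calr (192 in the knockouts and 178 in the controls) followed, and given their spread between livers these neighbours are not told apart. The sensors were far lower, with Atf6 at 18.9 in the knockouts and 16.8 in the controls and Eif2ak3 at 5.10 in the knockouts and 7.59 in the controls. Among the ATF4 amino acid targets Shmt2, the gene that rose, had the highest level at 72.9 in the knockouts and 36.0 in the controls, while the 5 others stayed at or under 4.70 in the knockouts and 10.4 in the controls. The summed CPM of the 6 was therefore higher in the knockouts (241.3 to 287.5) than in the controls (210.9 to 219.5) although 4 of the 6 fell.

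Other cell types and gene groups differed between the groups alongside these members. Over all tested genes 11.9% rose and 13.1% fell. Of 14 myeloid markers 12 fell and 0 rose, with a summed level of 274.7 to 533.7 CPM in the knockouts and 938.9 to 1001 CPM in the controls, and all 14 are above 0 in every liver. The 14 include Cd44, the deleted gene, and Lyz2, the site of Cre, and without these 10 of 12 fell, with a summed level of 235.9 to 463.6 CPM in the knockouts and 677.3 to 773 CPM in the controls. Of 8 stellate and fibroblast markers 5 fell and 0 rose (432.8 to 454.2 CPM in the knockouts against 630.8 to 682.9 CPM in the controls), and of 10 hepatocyte markers 3 rose and 0 fell. Of 8 immediate early genes, which respond to acute stress and to tissue handling, 6 fell and 0 rose (221 to 334 CPM in the knockouts against 560.6 to 1062 CPM in the controls). Their part in the lower levels of Ppp1r15a and the ATF4 targets was not tested. Endothelial (8 tested) and cholangiocyte (5 tested) markers had 0 calls by edgeR, with 2 and 1 at an unadjusted p under 0.05, and DESeq2 called 1 and 0. Plasma cells and pancreatic acinar cells are rich in ER chaperones. Of 9 plasma cell and 8 acinar markers only 5 and 1 were tested, and the plasma cell markers include Xbp1, itself a member. Of those tested 0 and 0 passed by edgeR or DESeq2, with 1 and 0 at an unadjusted p under 0.05 by edgeR. So few markers say little about either cell type. Jchain and Mzb1, which define plasma cells, stood at 0.290 to 1.70 CPM over all 6 livers, and Prss2, Cpa1 and Amy2a5 of acinar cells had 0 counts in every liver.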

How the data were processed

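Poly(A)-selected RNA of 6 whole livers was sequenced, per the labels' protocols. The authors deposited raw read counts per Ensembl gene, 1 column per mouse, and the submitters' processing notes name featureCounts 1.5.0-p3, StringTie 1.3.3b, HISAT2 2.0.5 and GRCm38.p6. For strand setting, multi-mapping and annotation release the entry is "not given in the sources used here". Of the members, 12 of 35 share exon bases with another gene. Symbols came from GENCODE M21 (54495 of 54532 identifiers matched).

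Genes passing filterByExpr were scaled by TMM and tested in edgeR 4.0.16 (R 4.3.3) by the quasi-likelihood test without covariates, checked on simulated data, with Benjamini-Hochberg adjustment over all 14758 genes. SE is the log2 change over the square root of F. Alternatives used DESeq2 1.42.0, limma-voom 3.58.1, RLE factors, library totals, other filters (none, or at least 50 counts in 3 libraries), omission of the 20 most abundant genes, the mouse number as a block and omission of each library. The members and lists were chosen with earlier results of these data known. Members have their values printed for the sensors, ISR regulators, ATF4 and other targets and for chaperone and degradation members that were called or had a high level per length. Those of Dnajc3, Sdf2l1, Creld2, Manf, Hyou1, Edem1 and Syvn1 were added after their values were seen. From each other list up to 4 genes that passed were picked by smallest p, and only some of these are described. Of those left out, Rcn1, Srprb, Spcs1, Impact, Gars, Vars and Wars fell, and Cnpy2, Lman1, Creb3l3 and Dars rose. Cth was named outside this rule. Livers of a group differed beyond counting noise (chi-square per degree of freedom at least 26.9). The labels number the mice, so replicates are animals. A limit of 3 counts corresponds to 0.119 to 0.148 CPM, covering counting error only.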

Additional observations from a re-analysis of the deposited data

How the results depend on the processing

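Under DESeq2, limma-voom, RLE factors, the stricter filter and omission of the 20 most abundant genes, between 33 and 35 of the 35 members kept their side of the threshold. Ppp1r15a, Phgdh and Shmt2 kept their direction and their call under all 14 alternatives. With library totals 904 genes rose and 3698 fell, 1 member rose and 10 fell, and the median log2 change of the ATF4 amino acid targets was −1.33. With no filter 1 member rose. Leaving out 1 liver at a time gave 1086 to 1576 genes higher and 1183 to 1837 lower, 1 to 3 members higher and 3 to 7 lower, 0 to 1 chaperones higher with a median log2 change of −0.13 to 0.16, and 2 to 4 ATF4 amino acid targets lower with a median of −1.25 to −0.94. Each of these fits has fewer livers, and the cause of the changes was not tested. The mouse numbers did not pair the livers (same-numbered livers correlated at −0.0271, 0.0441 and −0.0185 in their deviations from the group means), and not every liver correlated best with its own number. With the replicate block 1438 genes rose and 1648 fell, 1 member rose and 6 fell. Sel1l and Ddit4 did not pass under it (adjusted p = 0.0745 and 0.0709 by edgeR) and Chac1 did (adjusted p = 0.0118), and of the other genes named Ppp1r15b (0.0643) and Cth (0.062) did not pass. Depth limits the lowest members, with Phgdh near 0.433 CPM at its lowest.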

Other observations

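Of 24 genes of the ER translocon and vesicle transport, 1 rose and 3 fell, 16.7% where 25.0% of all tested genes passed, with a median log2 change of −0.27. Kdelr3, a receptor that returns chaperones to the ER, stood at 0.767, 0.433 and 1.23 CPM in the knockout livers against 8.46, 4.84 and 3.35 CPM in the control livers (log2 −2.77, SE 0.46, adjusted p = 0.00442 by edgeR), and it passed without any 1 liver. Of 20 cytosolic aminoacyl-tRNA synthetases, another class of ATF4 targets, 1 rose and 3 fell, 20% in all, with a median log2 change of −0.11 against −0.01 over all tested genes. Nars and Wars are counted both here and among the 33 other ATF4 and CHOP targets.

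Of 21 further regulators of ER stress and its death signals, 1 rose and 4 fell, 23.8% where 25.0% of all tested genes passed, so the share of calls was near that of all genes. Tnfrsf10b, the death receptor that CHOP is known to induce, stood at 1.25, 0.674 and 1.63 CPM in the knockout livers against 10.5, 10.7 and 7.44 CPM in the control livers, 8.06-fold lower (log2 −3.01, SE 0.31, adjusted p = 0.000812 by edgeR). Bbc3, the death protein PUMA, stood at 7.96, 10.5 and 10.3 CPM in the knockouts against 17.2, 15.7 and 15.3 CPM in the controls (log2 −0.75, SE 0.15, adjusted p = 0.00878 by edgeR). Creb3l1, an ER-anchored factor of collagen-producing cells, fell as well (log2 −1.24, SE 0.26, adjusted p = 0.0106 by edgeR). These 3 genes passed without any 1 liver, and Tnfrsf10b and Bbc3 are also targets of p53.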
